A study of Mus musculus with 32 samples.

Results

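The 32 genes described here encode the enzymes of glycolysis, the enzymes that set fructose 2,6-bisphosphate, the lactate dehydrogenases, 2 genes of the pyruvate dehydrogenase step and the enzymes of the pentose phosphate pathway. They were chosen by symbol, and all 32 were listed in both expression tables, among 26560 genes for Lin- cells and 25887 genes for CD11b+ cells. The symbol Aldoa stood on 2 gene IDs, and the one with the higher mean (ENSMUSG00000030695) was used. The study asked how the RNA-binding protein IGF2BP3 acts in leukemia driven by the MLL-Af4 fusion, and it measured RNA by RNA-seq and IGF2BP3 contacts by eCLIP, in which bound RNA is crosslinked, immunoprecipitated and sequenced.

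For every sample, MLL-Af4 was delivered to the starting bone marrow cells by an MSCV retrovirus with G418 selection. Lin- cells were lineage-depleted mouse bone marrow cells transduced and selected in culture. CD11b+ cells were taken by magnetic selection for CD11b from splenic tumors of irradiated mice that had received fluorouracil-enriched donor marrow transduced with the same kind of virus, a selected myeloid population that can still hold cells of the host. RNA-seq held 3 wild type and 3 IGF2BP3 KO libraries per cell type, all without further treatment. The KO animals had exon 2 of Igf2bp3 flanked by loxP sites and removed with Vav1-Cre, which was leaky and gave a deletion through the germline. The eCLIP libraries were 3 biological and 3 technical ones for Lin- cells and 2 biological and 2 technical ones for CD11b+ cells, each with a size-matched input (smInput), a library made without the antibody. The study describes the cells used for eCLIP as wild type with MLL-Af4, while the RNA levels set beside eCLIP reads below pool both genotypes. The technical libraries repeat biological ones and were not counted as separate samples. The ages of the animals behind each library are not given in the labels.

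The expression value of a gene was the authors' mean normalized count over both genotypes of a cell type. It is 1 value per gene and cell type, with no spread, so no level was tested and genotypes were not separated. The 2 tables were normalized separately, and levels across them were set on each table's summed means (per 1000000). In bulk samples, fewer cells of a type and less RNA per cell cannot be told apart.

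Of the markers, 6 of 6 stem and progenitor genes stood above the 90th percentile of listed genes in Lin- cells and 3 of 6 in CD11b+ cells. Among myeloid genes, 4 of the 5 listed did so in Lin- cells and 4 of 6 in CD11b+ cells. Itgam, which encodes CD11b itself, was not listed for Lin- cells and had a mean of only 17.0 normalized counts in the CD11b+ table (percentile 41.8). No T cell, B cell or megakaryocyte marker passed the 90th percentile in either table. The globin genes Hbb-bs and Hba-a1, which mark erythroid cells, had 52.2 and 5.85 normalized counts in Lin- and 1083 and 1268 in CD11b+ cells, while Klf1, an erythroid transcription factor, had 79.1 and 16.0. Their part in the levels described here was not tested. The eCLIP libraries held 4040 to 10054 peaks after removal of peaks also seen in smInput libraries. Lin- libraries 2 (biological) and 5 (technical) stood apart from the other Lin- libraries in where their peaks lay. The share of member sites near the end of an intron is given with and without them. Most other results that rest on them are given with them only.

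Glycolysis splits glucose into pyruvate and yields ATP and NADH, with its committed step at phosphofructokinase and its last step at pyruvate kinase. The pentose phosphate pathway branches off at glucose 6-phosphate, and its oxidative arm makes NADPH while its non-oxidative arm exchanges sugars with glycolysis. Proliferating leukocytes and leukemic cells are known for high glycolysis, and phagocytes use NADPH for the oxidative burst. IGF2BP proteins bind mRNA and are known for effects on its stability and translation.

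The sites that recurred in the most eCLIP libraries are shown first, since the results below turn on where in a gene they lie. A site is a set of overlapping peaks of 1 gene merged over libraries. Each line gives 30 bases of the GRCm38 (mm10) genome, 5′ to 3′ along the RNA, round the peak summit, or between the summit and a splice site at most 25 bases away. Hk3 is shown for its CA repeat, and its line gives the site with the most summed reads among several member sites seen in 5 libraries (the others were on Tpi1, Hk2, Gapdh and Pfkfb4). Capitals mark bases in an exon of an annotated coding transcript and lower case marks intron.
Pgam1, chr19:41916815-41916844, plus strand, 10 libraries: ATCTGGAGGgtaagtgtatcttcttccagg
Pgd, chr4:149166539-149166568, minus strand, 10 libraries: cagtcgggcccgggagacttccggggctga
Gapdh, chr6:125162700-125162729, minus strand, 9 libraries: cattgcccccgtgttttctagACCACAGTC
Gapdh, chr6:125165301-125165330, minus strand, 9 libraries: tcattttcttctcctgcagCCTCGTCCCGT
Gapdh, chr6:125162389-125162418, minus strand, 8 libraries: tcattttggggtttgttcttatcagGCCAA
Eno1, chr4:150246761-150246790, plus strand, 8 libraries: TACCCAGgtgggtatctgaggcagtctgtg
Pgk1, chrX:106187123-106187152, plus strand, 8 libraries: CAGGGGCGGGGCGGGCGCCCGAAGGTCCTC
Tkt, chr14:30549228-30549257, plus strand, 7 libraries: GTCCTCAGCGTTCTCGTCCTCGTCCTCGTC
Pkm, chr9:59675503-59675532, plus strand, 7 libraries: tgacaaagctctgacaaagccctgtccccc
Hk3, chr13:55018043-55018072, minus strand, 5 libraries: cacacacacacacacacacacacacacaca

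The 3 Gapdh sites ran over the end of an intron, with the summit 10 to 22 bases before the first base of the next exon. The Pgam1 and Eno1 sites lay just past the start of an intron. The Pgk1 and Tkt sites lay in the 5′ UTR of the first exon. The Hk3 site was a CA repeat deep in an intron, 1269 bases past the nearest 5′ splice site, and the Pkm site also overlapped the gene model Gm49759 on the same strand.

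Most of these genes were abundant in both cell types. The median member stood at percentile 94.7 of all listed genes in Lin- cells (median mean 4349 normalized counts, against 54.7 over all genes) and at percentile 93.4 in CD11b+ cells (2559 against 47.3). In Lin- cells 20 of 32 stood above the 90th percentile, and in CD11b+ cells 19 of 32. Their means summed to 0.899% of the Lin- table and 1.31% of the CD11b+ table. Per kilobase of exon, which allows genes to be compared, Aldoa (aldolase A, which splits fructose 1,6-bisphosphate) was the highest of the 32 in Lin- cells at 17971 mean counts per kilobase. Pkm (pyruvate kinase M) was the highest in CD11b+ cells at 17710 mean counts per kilobase, and second in Lin- cells at 11045. Gpi1, which interconverts glucose 6-phosphate and fructose 6-phosphate, was second in CD11b+ cells at 14336 mean counts per kilobase.

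**Figure D1:**
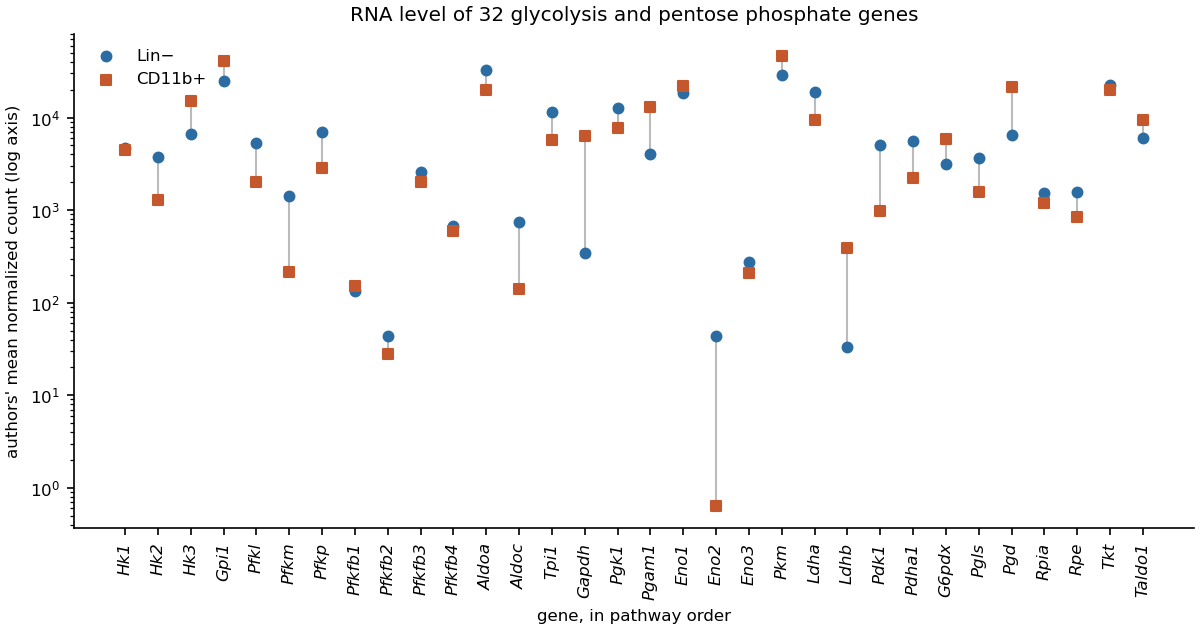
Authors' mean normalized count (log axis) of each of the 32 genes in pathway order, with circles for Lin- cells and squares for CD11b+ cells. Each point pools both genotypes and carries no error. Gapdh, Ldhb and Eno2 show the widest gaps between the cell types.

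Against the summed means of each table, 17 members were higher in CD11b+ cells and 15 lower. The median log2 ratio of CD11b+ over Lin- was 0.03, against -0.30 over the 14658 genes with a mean of at least 10 in both, of which 39.0% were higher in CD11b+ cells. In all, 9 members were over 1 log2 unit higher (17.0% of those genes were) and 5 were over 1 log2 unit lower (22.8% of them were). Scaling instead to the median gene with a mean of at least 100 in both moved every ratio up by 0.33 and made 20 members higher. The 3 that then changed direction were Pfkfb2, Aldoa and Pgk1.

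The hexokinases, which phosphorylate glucose, differed in their isozymes. Hk3 had a mean of 6643 normalized counts in Lin- and 15275 in CD11b+ cells, a log2 ratio of 1.61. Hk2 went the other way, from 3724 in Lin- to 1286 in CD11b+ cells, a log2 ratio of -1.12. Hk1 had 4669 and 4464, a log2 ratio of 0.35. Per kilobase of exon Hk3 made up 54.9% of the 3 hexokinases in Lin- and 79.9% in CD11b+ cells, while Hk2 made up 18.4% and 4.02%. Hk3 also led in both cell types per kilobase of coding sequence, at 44.5% and 73.0%.

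Among the phosphofructokinases, Pfkp and Pfkl held most of the message in both cell types. Pfkp made up 46.4% of the 3 in Lin- and 52.1% in CD11b+ cells per kilobase of exon, and Pfkl 40.3% and 42.3%. Pfkm, the muscle form, had a mean of 1407 normalized counts in Lin- and 214 in CD11b+ cells, a log2 ratio of -2.31. Of the 4 bifunctional enzymes that make and remove fructose 2,6-bisphosphate, Pfkfb3 led with 64.0% in Lin- and 59.3% in CD11b+ cells. Pfkfb2 was the lowest of the 4, with means of 43.5 and 27.9 normalized counts.

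Further down glycolysis, Gapdh, the glyceraldehyde 3-phosphate dehydrogenase, had a mean of 347.6 normalized counts in Lin- cells (percentile 63.8) and 6368 in CD11b+ cells (percentile 97.9). This log2 ratio of 4.61 was the largest of the 32 toward CD11b+ cells. In the same Lin- table Tpi1, the enzyme before it, had 11557 and Pgk1, the enzyme after it, had 12798. Near-identical copies of Gapdh are annotated in the mouse genome, and reads shared with them could be split or dropped in counting, so its level is uncertain in both tables. The listed copy Gapdh-ps14 had 9.95 normalized counts in Lin- and 21.1 in CD11b+ cells. The levels of Pgk1 and Pgam1 carry the same limit, with the listed copy Pgk1-rs7 at 6186 and 5647 normalized counts and Pgam1-ps2 at 823 and 6890. Pgam1 (phosphoglycerate mutase) itself had 4029 in Lin- and 13005 in CD11b+ cells.

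The enolases and aldolases were each dominated by 1 gene. Eno1 made up 97.4% of the enolases in Lin- and 98.5% in CD11b+ cells per kilobase of exon, and Aldoa 98.6% and 99.6% of the 2 aldolases. Eno2, the neuronal enolase, had a mean of 44.2 normalized counts in Lin- and 0.64 in CD11b+ cells, a log2 ratio of -5.69 and the largest of the 32 toward Lin- cells. Ldha, which turns pyruvate into lactate, had 18957 and 9427, and Ldhb, the heart form, had 33.1 and 386. Ldhb thus made up 0.253% of the 2 lactate dehydrogenases in Lin- and 5.62% in CD11b+ cells.

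**Figure D2:**
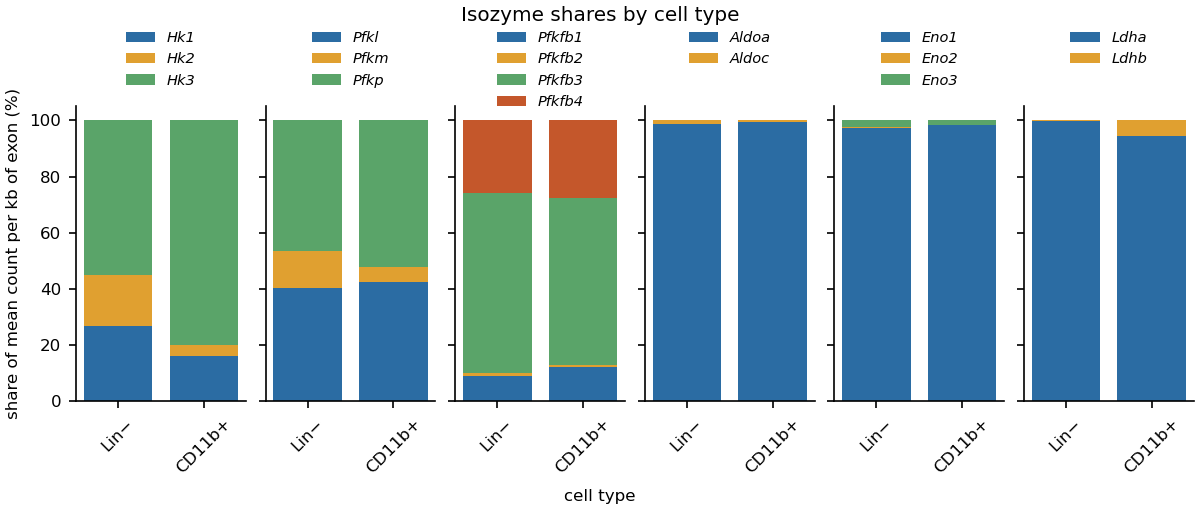
Share of each isozyme in its family by cell type, from the authors' mean normalized count per kilobase of exon, with 1 bar per cell type and 1 panel per family. The bar parts are shares of pooled means with no error. Hk3 takes 54.9% of the hexokinase bar in Lin- and 79.9% in CD11b+ cells.

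At the pyruvate dehydrogenase step both genes were lower in CD11b+ cells. Pdk1, the kinase that inhibits pyruvate dehydrogenase, had 5090 normalized counts in Lin- and 969 in CD11b+ cells (log2 ratio -1.98), and Pdha1, a subunit of the enzyme, had 5567 and 2243. In the pentose phosphate pathway 5 of 7 genes were higher in CD11b+ cells relative to each table's summed means. Both NADPH-making dehydrogenases were among them. G6pdx had 3118 in Lin- and 5863 in CD11b+ cells (log2 ratio 1.32), and Pgd had 6465 and 21404 (log2 ratio 2.14). Pgls, the lactonase between them, was lower, with 3667 and 1558 (log2 ratio -0.82). In the non-oxidative arm Tkt (transketolase) had 22444 and 19627 (log2 ratio 0.22) and Taldo1 (transaldolase) had 6070 and 9379 (log2 ratio 1.04). Rpia and Rpe had between 853 and 1564 normalized counts, with log2 ratios of 0.07 and -0.46.

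By eCLIP, 23 of the 32 members had at least 1 filtered peak in the Lin- libraries and 22 of 32 in the CD11b+ libraries, where 26.5% and 25.6% of all listed genes did. Among genes whose mean reached 1000 the gap was smaller, with 21 of 24 members against 76.5% of all such genes in Lin- and 18 of 22 against 68.4% in CD11b+ cells. A peak in at least 2 biological libraries was found for 15 members in Lin- cells (13.7% of all listed genes) and for 14 in CD11b+ cells (10.2% of all listed genes). Both cell types had peaks on 19 members, Lin- alone on 4 (Ldha, Pdha1, Pfkm, Rpe) and CD11b+ alone on 3 (Pfkfb2, Eno3, Pdk1). The same split over all genes was not counted, so these numbers have no background beside them. Pfkm, Rpe, Eno3 and Pdk1 each rested on 1 peak of 3 or 4 reads in 1 library. Pfkl, Pfkfb1, Aldoc, Eno2, Ldhb and Rpia had none in any library, also before the smInput filter. Of these, Pfkl was well expressed, at 5293 and 2027 normalized counts.

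Per library, members with a peak numbered 19, 17 and 13 in the biological Lin- libraries and 16 and 16 in the CD11b+ ones. The means were 16.3 ± 3.06 (SD, n = 3) and 16.0 ± 0.0 (SD, n = 2), and the groups overlapped (exact two-sided permutation test over 10 regroupings, p = 1, where the smallest p these libraries allow is 0.1). Peaks on members made up 0.625%, 0.448% and 0.345% of the peaks of the biological Lin- libraries and 0.552% and 0.368% of those of the CD11b+ libraries. These groups overlapped as well (difference 0.013 percentage points, exact permutation p = 1).

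The smInput libraries gave 3 peaks on members in all, against 344 filtered eCLIP peaks. They were 1 of 3 reads on Hk2 and 1 of 4 reads on Pgd in CD11b+ inputs, and 1 of 7 reads on Pgk1 in Lin- input 3. The filter removed 4 of 348 member peaks, or 1.15%, against 15.5% of all peaks. All 4 were on the first exon of Pgk1 in Lin- libraries 3 and 6. The filter was not limited to a library's own input. In Lin- library 6, 86.2% of all removed peaks overlapped a peak of input 6, and 99.7% overlapped one of input 6 or input 3. At Pgk1 input 6 held no peak, and input 3 held the only one.

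**Figure D3:**
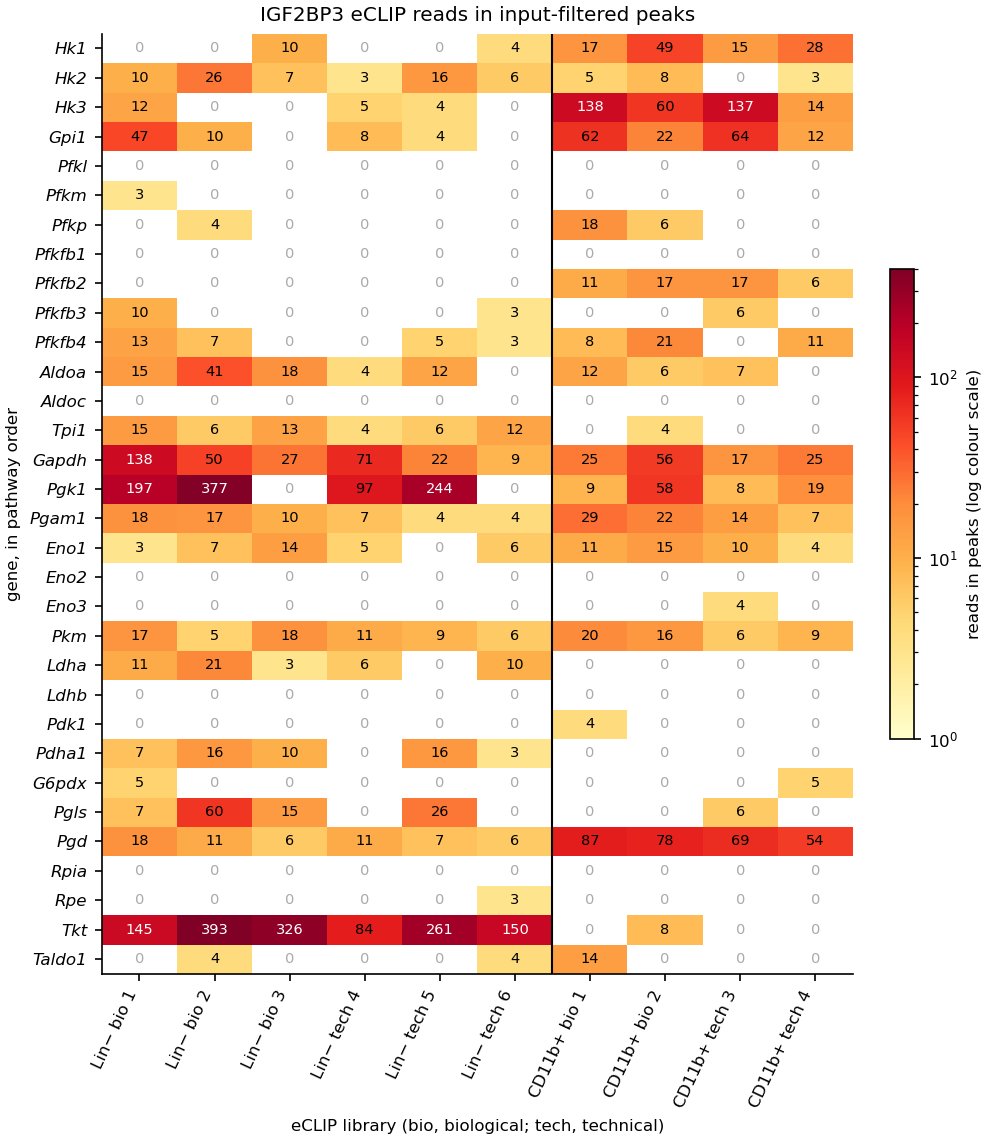
Reads in filtered IGF2BP3 eCLIP peaks of each of the 32 genes (rows, pathway order) in each of 10 libraries (columns, 6 Lin- and 4 CD11b+), as numbers and as a log colour scale. A 0 means that no filtered peak was called. Tkt is high in every Lin- library, at 84 to 393 reads, and Pgd has 54 to 87 reads in the CD11b+ libraries and 6 to 18 in the Lin- ones.

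The reads within peaks, as the peak caller counted them, are given below library by library. They are not divided by depth, which ranged from 35663 to 233695 reads in all filtered peaks of a library. Lin- libraries are named in the order 1 to 6, of which the first 3 are biological, and CD11b+ libraries in the order 1 to 4, of which the first 2 are biological. To compare the biological libraries, reads were divided by the reads in all filtered peaks of the same library. On that scale 7 of the 24 members with a peak in any biological library were higher in all Lin- than in all CD11b+ libraries (Aldoa, Hk2, Ldha, Pdha1, Pgls, Tkt, Tpi1), where 8.39% of all such genes were. The reverse held for 5 members (Hk1, Hk3, Pfkfb2, Pfkp, Pgd), where 13.6% of all such genes did. The other 12 overlapped. With technical libraries included, only Hk2, Tkt and Tpi1 (Lin- higher) and Hk1, Pfkfb2 and Pgd (CD11b+ higher) stayed apart.

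Of the hexokinases, Hk3 had 12, 0, 0, 5, 4 and 0 reads in the Lin- libraries and 138, 60, 137 and 14 in the CD11b+ ones. Every CD11b+ library was above every Lin- library in these undivided reads. Per 10000 reads in filtered peaks, the lowest CD11b+ library (technical library 4) had 1.44 and the highest Lin- library (1) had 1.46, so the groups overlapped once technical libraries were included. Hk3 had 13 sites, all in introns, 11 of them in CD11b+ libraries, and the site with the most reads (107, seen in 4 CD11b+ and no Lin- libraries, chr13:55020577-55020644) lay in intron 1 and held a CA repeat. Hk1 had 0, 0, 10, 0, 0 and 4 reads in Lin- and 17, 49, 15 and 28 in CD11b+ libraries. Its 13 sites were all intronic, 4 in Lin- and 9 in CD11b+ libraries, and none was shared. Hk2 had 10, 26, 7, 3, 16 and 6 reads in Lin- and 5, 8, 0 and 3 in CD11b+ libraries, so the groups overlapped before scaling to depth. Its most recurrent site, in intron 2 and 4778 bases before the nearest 3′ splice site, was seen in 4 Lin- libraries and 1 CD11b+ library. For Hk1, Hk2 and Hk3 the cell type with more eCLIP reads also had the higher RNA level relative to each table's summed means. Of the other members named above as not overlapping, the same held for Aldoa, Ldha, Pdha1, Pgls, Tpi1 and Pgd. Pfkp, Pfkfb2 and Tkt went the other way, with RNA log2 ratios of -0.88, -0.23 and 0.22. Scaled to the median gene with a mean of at least 100 in both, the RNA ratios of Aldoa and Pfkfb2 changed sign, to 0.03 and 0.10. On that scale Aldoa went the other way and Pfkfb2 did not. The Pfkfb2 peaks also overlapped another gene model, as described below. The part of RNA level in the eCLIP reads was not tested.

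Gpi1 had 47, 10, 0, 8, 4 and 0 reads in Lin- and 62, 22, 64 and 12 in CD11b+ libraries, which overlap. Its sites differed in place. The 3 sites seen in 3 CD11b+ libraries lay 1808 to 3187 bases inside intron 9, while the 2 seen in 3 Lin- libraries lay 24 and 34 bases before a 3′ splice site. Of the phosphofructokinases only Pfkp had a site seen in more than 1 library (chr13:6612901-6612977), with 4 and 6 reads in the biological CD11b+ libraries. Over all its sites Pfkp had 18 and 6 reads in these libraries, 0 in the technical CD11b+ ones, and 4 reads in Lin- library 2 alone, on another site.

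Pfkfb2 had no peak in any Lin- library and 11, 17, 17 and 6 reads in the CD11b+ libraries, at an RNA level of 27.9 normalized counts. The peaks fell on 3 sites, all of which also overlapped the gene model Gm29427 on the same strand, so they cannot be given to Pfkfb2 alone. Pfkfb4 had 13, 7, 0, 0, 5 and 3 reads in Lin- and 8, 21, 0 and 11 in CD11b+ libraries and shared 3 of its 5 sites between the cell types. Pfkfb3 had 10 reads in Lin- library 1 and 3 in library 6, and 6 in CD11b+ library 3.

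Aldoa had 15, 41, 18, 4, 12 and 0 reads in Lin- and 12, 6, 7 and 0 in CD11b+ libraries. It carried the only recurrent 3′ UTR site among genes with no overlapping model, chr7:126795273-126795327, with 55 reads over 4 Lin- libraries and none in CD11b+ libraries. Tpi1 (triosephosphate isomerase) had 15, 6, 13, 4, 6 and 12 reads in Lin- libraries, and in CD11b+ libraries a single peak of 4 reads in library 2. Its 4 sites all lay up to 50 bases before a 3′ splice site.

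Gapdh was bound in every library of both cell types, with 138, 50, 27, 71, 22 and 9 reads in Lin- and 25, 56, 17 and 25 in CD11b+ libraries. The ranges overlapped, although its listed RNA level was far lower in the Lin- table. It had 9 sites, 5 of them shared. The site over the end of intron 4 (chr6:125162673-125162764) was seen in 6 Lin- and 3 CD11b+ libraries with 184 reads, and the site over the end of intron 5 (chr6:125162377-125162456) in 4 and 4 libraries with 114 reads.

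Pgk1 (phosphoglycerate kinase) had 1 site, the first 134 bases of its first exon. It had 197, 377, 0, 97, 244 and 0 reads in Lin- and 9, 58, 8 and 19 in CD11b+ libraries. The pair at 0 were the libraries where the smInput filter removed peaks on this site. Before it, Lin- library 3 held 198 reads and library 6 held 126 reads there, so all 10 libraries had a peak and every Lin- library was above every CD11b+ library. Retroviral vectors with a drug resistance gene can carry the mouse Pgk1 promoter with the start of its transcript. The starting cells of every library were transduced with such a selectable virus, and whether reads at this site came from the vector was not tested.

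Pgam1 and Eno1 were bound at the start of an intron in both cell types. Pgam1 had 18, 17, 10, 7, 4 and 4 reads in Lin- and 29, 22, 14 and 7 in CD11b+ libraries, and its site in intron 3 (chr19:41916809-41916869) was called in all 10. Eno1 had 3, 7, 14, 5, 0 and 6 reads in Lin- and 11, 15, 10 and 4 in CD11b+ libraries. Its site past the start of intron 8 was seen in 4 libraries of each cell type. Pkm had 17, 5, 18, 11, 9 and 6 reads in Lin- and 20, 16, 6 and 9 in CD11b+ libraries. Of its 10 sites, 8 lay up to 50 bases before a 3′ splice site. For Pgam1, Eno1 and Pkm the groups overlapped.

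Ldha and Pdha1 were bound in Lin- libraries alone. Ldha had 11, 21, 3, 6, 0 and 10 reads and Pdha1 7, 16, 10, 0, 16 and 3 reads in Lin- libraries, and neither had a peak in a CD11b+ library. Both were expressed in CD11b+ cells, at 9427 and 2243 normalized counts, with log2 ratios of -0.59 and -0.90.

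In the pentose phosphate pathway, Pgd and Tkt stood opposite each other. Pgd had 18, 11, 6, 11, 7 and 6 reads in Lin- and 87, 78, 69 and 54 in CD11b+ libraries, with no overlap. The site in its intron 1 (chr4:149166534-149166632) was called in all 10 libraries, while the one in intron 3 (chr4:149161888-149161963, 106 reads) was called in 4 CD11b+ and no Lin- libraries. Tkt had 145, 393, 326, 84, 261 and 150 reads in Lin- and 0, 8, 0 and 0 in CD11b+ libraries, also with no overlap. Its RNA level was close in the 2 tables, at 22444 and 19627 normalized counts. Most of its reads, 1253 over 6 Lin- libraries and 1 CD11b+ library, lay on 1 site in the 5′ UTR (chr14:30549185-30549281), the most reads on any member site. A further 8 of its 10 sites lay up to 50 bases before a 3′ splice site. Pgls had 7, 60, 15, 0, 26 and 0 reads in Lin- libraries and 1 peak of 6 reads in CD11b+ library 3. The remaining 6 members with a peak (Pfkm, Eno3, Pdk1, G6pdx, Rpe, Taldo1) had 3 to 14 reads in a library that called them and no site in 2 libraries of a cell type.

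Over both cell types the peaks merged into 139 sites with a median width of 54 bases and a median of 9 reads in all. There were 90 sites in Lin- and 76 in CD11b+ libraries, and 26 were seen in both. Support was thin for many, with 70 of 139 seen in 1 library. By their midpoint 128 were intronic, 4 coding, 4 in a 3′ UTR and 3 in a 5′ UTR. In Lin- cells 92.2% of the 90 member sites were intronic (Wilson 95% interval 84.8 to 96.2%), against 77.5% of all 20608 merged sites. In CD11b+ cells 93.4% of the 76 were (85.5 to 97.2%), against 83.7% of 17735. The intervals cover counting error only. Many sites overlapped an exon edge. With any such overlap counted as exonic, the intronic share of member sites was 31.1% in Lin- and 76.3% in CD11b+ cells. Over all sites it was 36.4% and 74.3%, so the member share in Lin- cells was then the lower one.

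The intronic sites lay at different places in the 2 cell types. In Lin- cells 58 of 90 member sites, or 64.4% (54.2 to 73.6%), had their summit in the last 50 bases of an intron, and a further 18.9% in the first 50 bases. In CD11b+ cells 16 of 76, or 21.1% (13.4 to 31.5%), lay in the last 50 bases, and 57.9% lay in an intron over 100 bases from any splice site, against 8.89% in Lin- cells. The same order was seen over all genes, with 40.7% of annotated sites in Lin- and 10.8% in CD11b+ cells in the last 50 bases of an intron. Without Lin- libraries 2 and 5 the member share in Lin- cells was 68.4%.

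**Figure D4:**
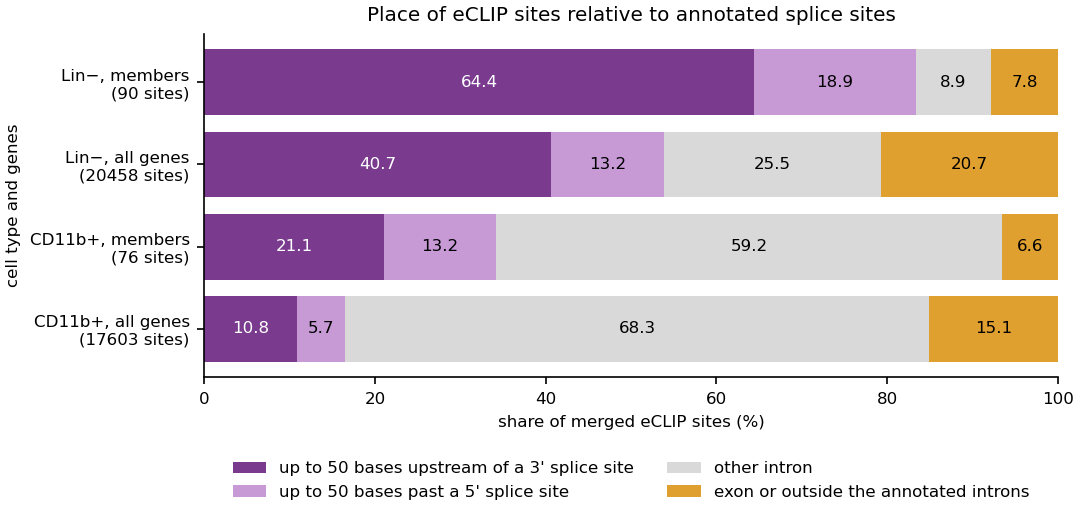
Share (%) of merged eCLIP sites in each place, in 4 bars for the 32 genes and for all genes with an annotation in Lin- and CD11b+ cells, with the number of sites beside each bar. The last 50 bases of an intron hold 64.4% of the member sites in Lin- and 21.1% in CD11b+ cells.

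Taken library by library, the share of member peaks in the last 50 bases of an intron was 69.6%, 28.9% and 60.0% in the biological Lin- libraries and 19.1% and 21.6% in the CD11b+ ones. The groups did not overlap, but Lin- library 2 was closer to the CD11b+ libraries than to the other Lin- ones. The means were 52.8 ± 21.3% (SD, n = 3) and 20.4 ± 1.75% (SD, n = 2), and the difference of 32.4 percentage points did not pass (exact two-sided permutation p = 0.2, smallest possible 0.1). Without Lin- library 2 the difference was 44.4 points, and with abutting peaks of a library joined it was 36.9 points. Technical Lin- libraries 4 to 6 had 76.0%, 23.1% and 55.0%, so that library 5 stood with library 2.

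Within each library, member peaks lay in the last 50 bases of an intron more often than the peaks of other genes. The difference was positive in 5 of 5 biological libraries, with a mean of 12.5 ± 3.57 percentage points (SD, n = 5) and a range of 8.12 to 18.0 (exact two-sided sign-flip permutation p = 0.0625, the smallest that 5 libraries allow). It was positive in 10 of 10 libraries with the technical ones included. Members with a site also had denser splice sites. The median annotated 3′ splice sites per kilobase of gene were 0.586 against 0.299 over all genes with a site in Lin- cells, and 0.540 against 0.268 in CD11b+ cells. The part of this density in the share was not tested.

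**Figure D5:**
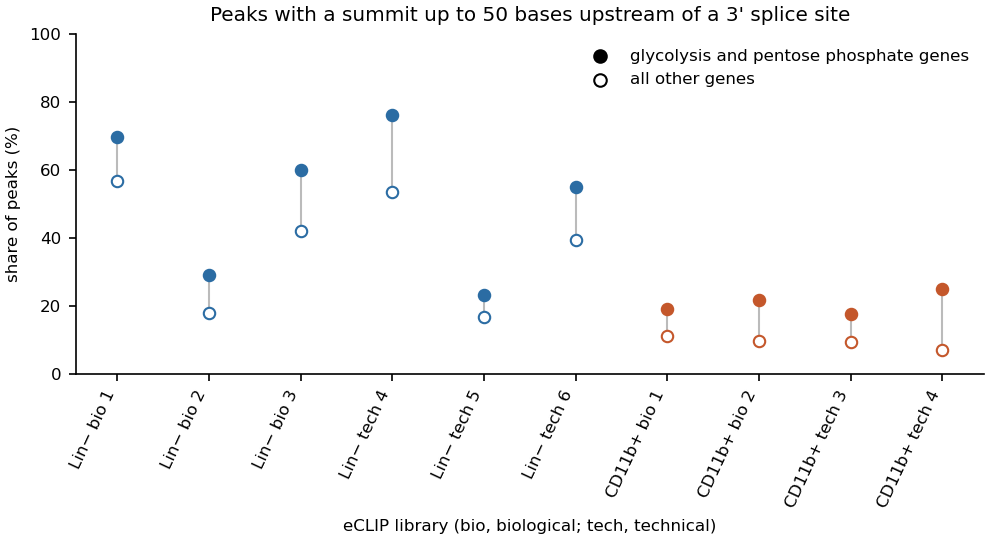
Share (%) of filtered eCLIP peaks whose summit lies in the last 50 bases of an intron, for each of 10 libraries, with filled points for the 32 genes and open points for all other genes. The filled point is above the open one in 10 of 10 libraries, and Lin- libraries 2 and 5 sit below the other Lin- libraries.

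CA repeats were read at member sites as either 6-mer ACACAC or CACACA on the RNA strand, which overlap each other in a longer repeat. Of 139 sites, 14 held one, 10 of them seen in CD11b+ libraries alone, 2 in Lin- alone and 2 in both. The share was 15.8% of CD11b+ sites (9.27 to 25.6%), against 17.0% of all CD11b+ sites, and 4.44% of Lin- sites (1.74 to 10.9%), against 8.35% of all Lin- sites. Hk3 had 3 such sites and Pgd had 3, all called in CD11b+ libraries, and 1 of the Hk3 sites (chr13:55018026-55018091) was also called in 1 Lin- library. By library the share of member peaks was 0%, 2.22% and 3.33% in the biological Lin- libraries and 10.6% and 16.2% in the CD11b+ libraries. The groups did not overlap (difference -11.6 percentage points, exact two-sided permutation p = 0.1, the smallest possible). The Lin- shares rest on 0, 1 and 1 peaks. Technical Lin- libraries 4 to 6 had 4%, 7.69% and 10%, and the technical CD11b+ libraries had 17.5% and 14.3%. For peaks of other genes the share was 4.68%, 7.27% and 9.08% in the biological Lin- libraries. It was 8.89% and 20.4% in the biological CD11b+ libraries, so for other genes the groups overlapped. In the Lin- library at 0%, 0 of 46 peaks allows a share of up to 6.52%. The 4-mer GGAC was found in 16.7% of Lin- and 13.2% of CD11b+ member sites, against 11.2% and 9.98% of all sites.

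Of 44 other genes of glucose metabolism taken as a list, 40 were listed in both tables, and 20 of these were higher and 20 lower in CD11b+ cells. Their median level was lower than that of the 32, at percentile 70.0 in Lin- and 69.1 in CD11b+ cells. A peak was found for 15 of 40 listed in Lin- and 15 of 41 in CD11b+ cells, against 26.5% and 25.6% of all listed genes. In both cell types 10 had a peak. The glucose transporters Slc2a1 and Slc2a3 had 1411 and 1920 normalized counts in Lin- and 516 and 365 in CD11b+ cells. The lactate exporter Slc16a3 had 1994 and 3575, and its relative Slc16a1 had 2280 and 390. Fbp1, the fructose bisphosphatase of gluconeogenesis, had 28.5 and 1195 normalized counts. Pck2 had peaks in 6 Lin- libraries and 1 CD11b+ library, Pdp2 in 5 and 4, and Rbks in none and 4.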

How the data were processed

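Samples were grouped by the labels' cell type, genotype and library kind. The expression values are the deposited mean normalized count of each gene (a signal, computed by the authors with DESeq2 after mapping to mm10 with STAR 2.5.3a, with Bowtie2 against repeats), pooled over both genotypes. The counter and its annotation are not given in the sources used here. The tables' own comparison columns (fold change, standard error, statistic, p, adjusted p and marks from them) were not used. RNA-seq depth per library was not analysed here.

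For eCLIP, the authors trimmed, deduplicated and mapped reads, called peaks per library with CLIPper at p below 0.05, and removed peaks overlapping smInput peaks. Which inputs were used for which library is not given in the sources used here, and 99.7 to 100% of the removed peaks of each library overlapped a peak of its own input or of 1 other. The deposited p-value of a peak was used only for a threshold of 0.001, and the reads of a peak are the last number in its deposited name (at least 3). Peaks were joined to genes by Ensembl ID and merged where they overlapped by at least 1 base on 1 strand and gene. Places, lengths and splice sites came from GENCODE M21 (basic), and sequences from RefSeq GRCm38.p6. Percentiles are the share of listed genes with a lower mean. Exact permutation tests over biological libraries were two-sided. The limit for 0 counts is 3 counts of the total, and such limits and intervals cover counting error only. The steps were tested on simulated data in Python 3.11.15 with pandas 2.3.3, NumPy 2.4.6 and SciPy 1.17.1, and figures used matplotlib 3.10.9.

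All 32 members were described, with values per library for each one with a site in at least 2 libraries of a cell type. The members, lists and tests were chosen with earlier results of these data known, and the splice-site and within-library comparisons were added after their values were seen. Where replicates came from separate cultures or animals is not stated per library, so p-values measure the spread between these libraries. 1 of the marker genes is not reported here.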

Additional observations from a re-analysis of the deposited data

Results flagged for a closer look

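In the 6 Lin- smInput libraries the number of peaks on members was 0 in 5 and 1 in library 3, and this 1 stood apart by the gap from the other libraries over the whole range. It was the peak of 7 reads on the first exon of Pgk1, where eCLIP peaks of 198 reads were removed from Lin- library 3 and peaks of 126 reads from technical library 6. Chance sets about 1 in 20 groups apart in this way, and with counts this small a single peak is enough.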

How the results depend on the processing

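Of 93 alternatives to the values that answer a comparison, 72 kept direction, side of the threshold and size. With peaks at CLIPper p below 0.001 in place of 0.05, members with a peak numbered 15 in Lin- cells, sites 37 in Lin- and 45 in CD11b+ cells, and the Lin- minus CD11b+ difference turned to -1.83 members and to -0.0367 percentage points of a library's peaks. A peak in at least 2 biological libraries left 15 and 14 members. With the biological libraries alone there were 76 sites in Lin- and 62 in CD11b+ cells, and leaving out 1 of these libraries gave 57 to 64 and 37 to 47. It gave a difference of -1 to 2 members and of -0.079 to 0.105 percentage points, so neither difference has a stable direction. With any exon overlap counted as exonic, 31.1% and 76.3% of member sites were intronic, against 36.4% and 74.3% of all sites. The 4-mer CACA was found in 20% of Lin- member sites. Scaling to the median gene gave a median log2 ratio of 0.36. Per coding length, 6 of 34 isozyme shares moved by over 5 percentage points. With technical libraries counted as samples, which they are not, the differences were 31.3 points (last 50 bases of an intron), -10.1 points (CA 6-mer) and 13.4 points (members minus other genes, within library), with exact permutation p = 0.019, 0.0095 and 0.002.

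With the replicate block, over the numbers 1 and 2 that both cell types share, the Lin- minus CD11b+ differences were 2 members, 0.0767, 28.8 and -12.3 percentage points, each with an exact p of 0.5, the smallest that 2 pairs allow. Nothing in the labels pairs these numbers across cell types, and 2 pairs are too few to check it. No RNA level carries a replicate spread, and a peak of 3 reads is the least these lists can show.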
